A study of Homo sapiens with 32 samples.

Results

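The interferon-stimulated genes described here are 42 genes chosen by symbol from a list of genes that interferon switches on, with no measured value in the rule. All 42 were found among the 25559 gene symbols of the deposited count tables, and all 42 passed the filter on low counts. Their messenger RNA was read in 32 libraries, 8 from each of 4 human T-cell lines, after 96 hours of drug exposure. By their labels, PF382 came from T-cell acute lymphoblastic leukemia, TLOm1 from adult T-cell leukemia, and both HH and H9 from cutaneous T-cell lymphoma. Each line had combination libraries, which held romidepsin and azacitidine together, then azacitidine alone, romidepsin alone, and untreated cells. Azacitidine, a cytidine analogue that traps DNA methyltransferases, was used at 125, 250 and 500 nM on PF382 and TLOm1 but at 50, 125 and 250 nM on HH and H9. Romidepsin, which inhibits histone deacetylases, was used at 1.25 nM on PF382 and 1 nM on TLOm1 and H9. For HH its labelled dose was 1.25 nM in the combinations and 1 nM alone. Each condition had 1 library per line, so the 4 lines served as the replicates (n = 4) in comparisons over the lines. For drug effects within a line, libraries at different azacitidine doses stood in for replicates. Their p values describe agreement over doses, not over repeated cultures. Differences between cultures of a single line were not measured, and bulk RNA cannot tell fewer responding cells from less RNA per cell.

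Interferons are secreted proteins that cells make when they sense viral nucleic acid. Their receptors activate JAK kinases, which phosphorylate STAT proteins. STAT2 and IRF9 are parts of a complex that binds interferon response elements, GAAA repeats in the promoters of interferon-induced genes, and many of the induced proteins block viral entry, replication and translation. IRF7 is both a product of this response and a factor that starts more interferon genes, so it closes a loop.

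The combination at 250 nM azacitidine raised 10 of the 42 genes over the lines, led by IFI6, IRF7, OAS3 and OASL, and lowered none. This is 23.8% of the members, near the 23.0% of all 17801 symbols called in either direction (14.2% were called higher). Azacitidine alone at that dose raised IRF7, HERC6 and XAF1 (7.14% of the members, against 5.99% of all symbols), and romidepsin alone changed none over the 4 lines (0.0169% of all symbols). Within single lines romidepsin changed 20, 28, 18 and 3 members in PF382, TLOm1, HH and H9, where it changed 30.7%, 32.6%, 27.7% and 4.47% of all symbols. IFI6 was called higher with romidepsin in 4 of 4 lines. Its call in HH (0.43 ± 0.14, adjusted p 0.0287 in edgeR) did not hold in every fit with an azacitidine dose left out. The calls in PF382, TLOm1 and H9 did. Called higher in some lines and lower in others were 9 members (21.4%), against 5.27% of all symbols. Of these, only IFIT3, IFITM2, RSAD2 and SAMD9L kept calls in both directions whichever azacitidine dose was left out. The RSAD2 fall, in HH, rests on few reads.

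Total counts ran from 16175077 to 32496676 per library. After group means were removed, libraries of the same line correlated at 0.86 to 0.973 in 60 of 60 pairs. Of 11 T-cell markers, 9 were in the tables, and their summed level was 916 to 2006 CPM (counts relative to the library total, scaled by TMM normalisation factors) over the libraries. None of the 9 was at 0 in every library of a line, but LCK had 0 counts in 6 of 8 HH libraries, and in TLOm1 CD3D, CD3G and LCK had 0 counts in 1, 3 and 1 of 8. A floor of 3 counts was 0.0982 to 0.196 CPM, and such floors cover counting error only.

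Promoter sequences are shown first because most members share a motif that their expression values did not define. RefSeq windows of 300 bases (250 before and 50 after a start site, build GRCh38.p14) were matched by symbol for 34 of the 42 members. The motif searched was GAAA, any 2 bases (NN) and GAAA again, on both strands, so that TTTC, NN and TTTC counted too. It was in a window of 24 of these 34 members (70.6%), against 4.38% of the 27305 symbols with a window. The median number of CpG sites in the bases before the start was 6 over the members' windows, against 11 over all windows. IFI6 is shown for its lead in the combination, OAS3 for its rise in 3 lines with azacitidine, PLSCR1 for its line-dependent change with romidepsin, and LGALS3BP for its rise in TLOm1. Each stretch holds the 200 bases before a start site, with motif matches in capitals. PLSCR1 has 2 annotated starts here, and the window of one is shown.
IFI6, chr1:27672193-27672392, minus strand: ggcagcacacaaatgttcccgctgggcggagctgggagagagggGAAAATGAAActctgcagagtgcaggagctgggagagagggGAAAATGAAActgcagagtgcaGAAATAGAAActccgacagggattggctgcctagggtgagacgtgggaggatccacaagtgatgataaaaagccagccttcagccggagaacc
OAS3, chr12:112938274-112938473, plus strand: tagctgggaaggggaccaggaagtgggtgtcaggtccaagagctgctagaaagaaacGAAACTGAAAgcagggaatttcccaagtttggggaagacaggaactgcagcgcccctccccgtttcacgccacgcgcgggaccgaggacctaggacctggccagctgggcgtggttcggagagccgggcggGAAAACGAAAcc
PLSCR1, chr3:146544608-146544807, minus strand: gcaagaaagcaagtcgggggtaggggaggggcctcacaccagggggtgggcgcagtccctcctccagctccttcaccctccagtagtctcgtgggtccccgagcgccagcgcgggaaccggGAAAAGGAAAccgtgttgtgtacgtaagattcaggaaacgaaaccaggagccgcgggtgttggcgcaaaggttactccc
LGALS3BP, chr17:78979924-78980123, minus strand: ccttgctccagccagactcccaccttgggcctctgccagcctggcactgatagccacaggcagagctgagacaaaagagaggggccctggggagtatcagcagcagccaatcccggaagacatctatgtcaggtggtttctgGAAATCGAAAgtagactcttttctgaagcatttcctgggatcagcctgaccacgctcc

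These stretches hold 3 matches in IFI6, 2 in OAS3, and 1 each in PLSCR1 and LGALS3BP. PARP9 and DTX3L, which encode partners of a complex that modifies proteins with ADP-ribose and ubiquitin, start head to head on opposite strands of chromosome 3. One annotated PARP9 start, at position 122564300, lies 38 bases from the DTX3L start at 122564338. A single match, here on the reverse strand of PARP9, stands near both starts, and the 60 bases before that PARP9 start are shown because these 2 genes were near 0 together in untreated TLOm1 and HH.
PARP9, chr3:122564301-122564360, minus strand: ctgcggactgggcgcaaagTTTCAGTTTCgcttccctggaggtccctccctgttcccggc
A match describes these letters and is not a measured binding site, and a member with no match in its window may hold one elsewhere.

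Untreated levels of the members differed between lines. The median over the 42 genes was 12.7 CPM in PF382, 8.0 CPM in TLOm1, 4.08 CPM in HH and 12.3 CPM in H9. Under 1 CPM were 4 members in untreated PF382, 9 in TLOm1, 15 in HH and 4 in H9. Of all tested symbols, 27.7%, 29.5%, 30.5% and 27.7% were under 1 CPM in untreated PF382, TLOm1, HH and H9. HH thus had the most such members and also the highest share of all symbols. Its low members included XAF1, OAS1, OAS3, PARP9, DTX3L, PARP12, MX1, USP18 and LGALS3BP.

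**Figure D1:**
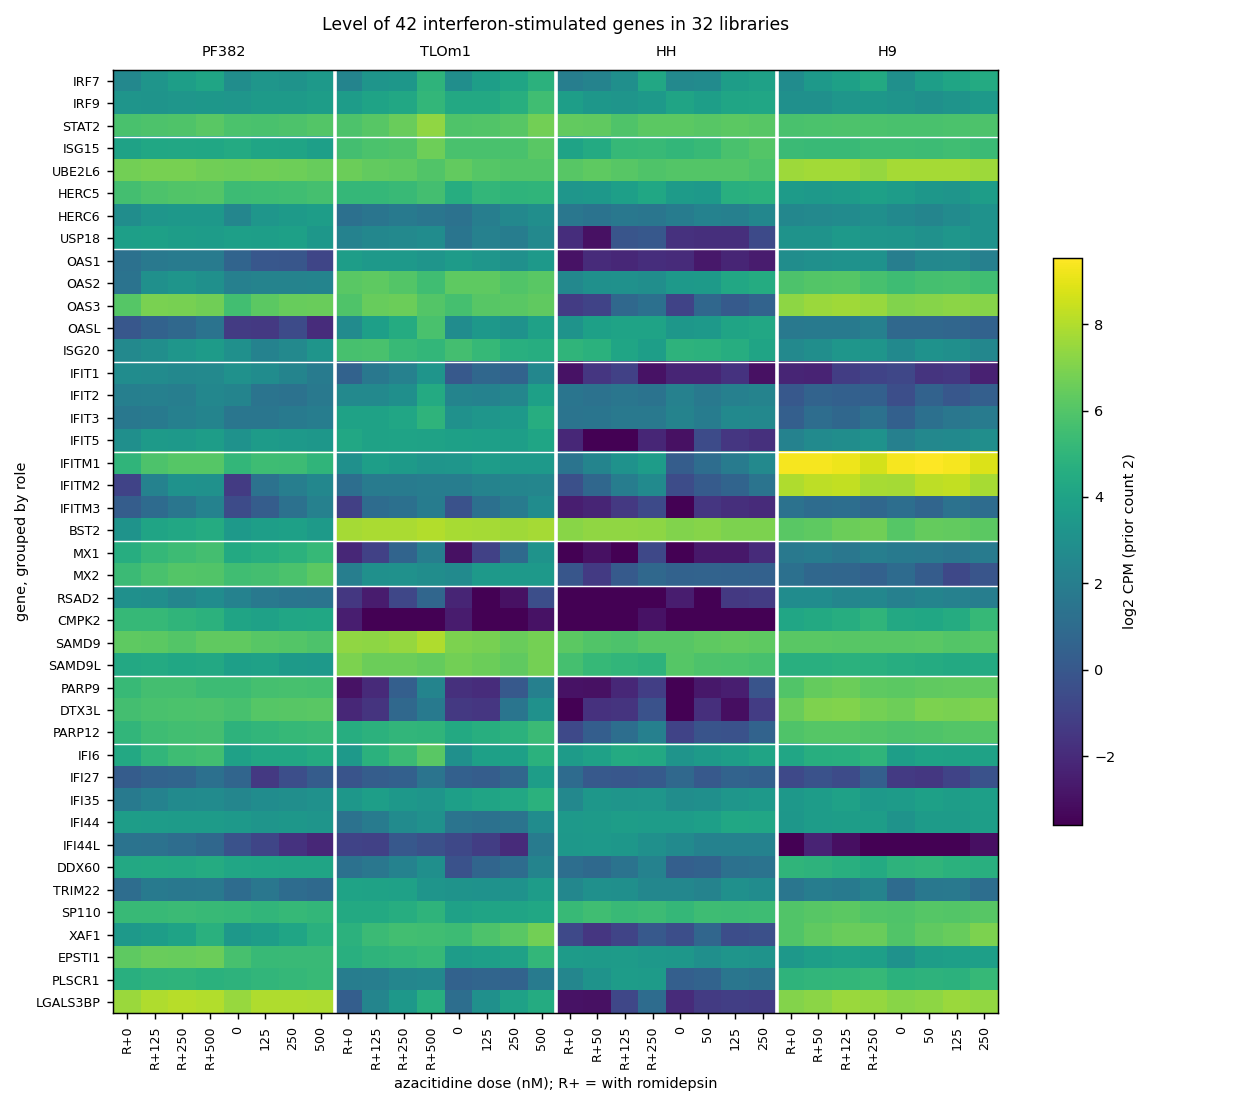
Level of each of the 42 genes (rows, by role) as log2 CPM in the 32 libraries (columns). Within each line the libraries with romidepsin stand left of those without, each by azacitidine dose in nM; PARP9 and DTX3L are dark in untreated TLOm1 and HH and bright in PF382 and H9.

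Over the 4 lines, edgeR's quasi-likelihood test with Benjamini-Hochberg adjustment called 10 of the 42 members in the combination at 250 nM against untreated cells, all higher. The share was 23.8% of the members, against 23.0% of all 17801 symbols called in either direction, 14.2% called higher and 8.76% called lower. The share called in either direction is near the background. The median log2 change was 0.51 over the 42 members, against 0.04 over all symbols. Azacitidine alone at 250 nM against untreated called 3 members (7.14%), all higher, against 5.99% of all symbols (3.85% higher, 2.14% lower), with a median log2 change of 0.28 against 0.02. Romidepsin against untreated called none, against 0.0169% of all symbols. In that comparison edgeR gave 3 members an unadjusted p under 0.05, DESeq2 called 0, and the median log2 change was 0.07 against 0.01 over all symbols. These 3 comparisons share their untreated libraries.

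Without PF382 the combination at 250 nM called 5 members, and without PF382, TLOm1 or H9 azacitidine at 250 nM called 1. IFI6, IRF7, OAS3 and OASL were called in the combination whichever line was left out. No member was called in either comparison when only the libraries of the 2 groups entered the fit.

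**Figure D2:**
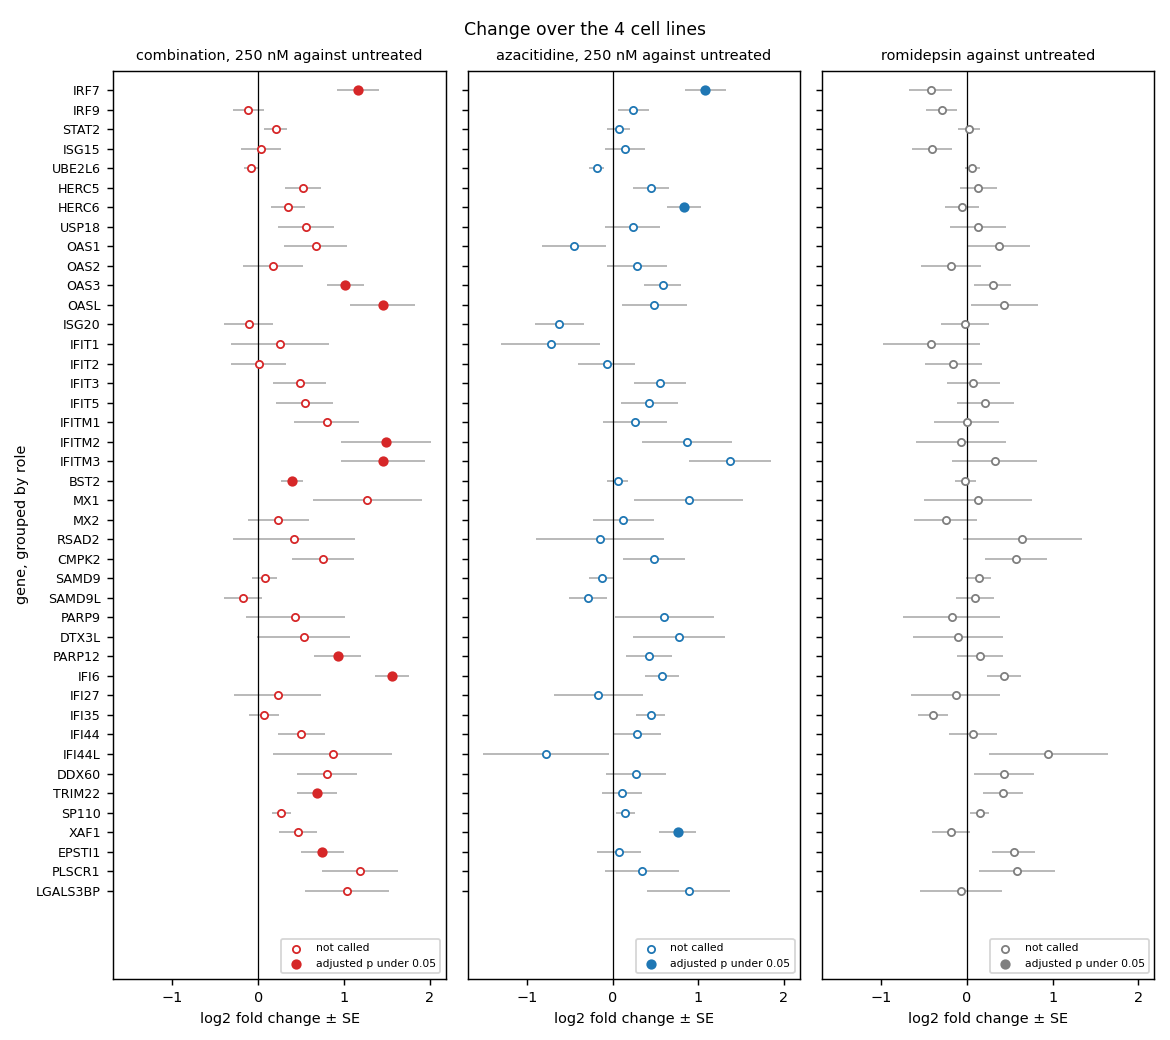
Log2 fold change with its standard error for each member over the 4 lines, for the combination at 250 nM, azacitidine at 250 nM and romidepsin, each against untreated cells. Filled points have an adjusted p under 0.05; there are 10, 3 and 0 of them.

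Among the signalling factors, IRF7 rose and IRF9 and STAT2 were not called at 250 nM. IRF7 was at 13.6, 10.1, 19.4 and 20.7 CPM in PF382, TLOm1, HH and H9 given the combination at 250 nM, against 7.14, 7.3, 6.02 and 7.84 CPM in the same lines untreated. Every combination library lay above every untreated one. The log2 change was 1.16 ± 0.24 (SE), with an adjusted p of 0.00164. Azacitidine alone at 250 nM gave 8.67, 17.6, 14.8 and 21.5 CPM in the 4 lines, again above every untreated library, with PF382 the lowest. That change was 1.08 ± 0.24 (adjusted p 0.00902), and the call was lost without HH (0.0721) or without H9 (0.125). Romidepsin alone gave 5.63, 4.86, 3.95 and 6.88 CPM, below the untreated level in each line, a change of -0.42 ± 0.25 that was not called (adjusted p 0.93).

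IRF7 also had the smallest p of the members in the slope over azacitidine dose. In HH it was at 3.95, 4.7, 7.74 and 19.4 CPM with romidepsin at 0, 50, 125 and 250 nM azacitidine, and at 6.02, 6.54, 13 and 14.8 CPM without romidepsin. In H9 the same doses gave 6.88, 10.9, 14.6 and 20.7 CPM with romidepsin and 7.84, 13.3, 17.3 and 21.5 CPM without. In TLOm1 doses of 0, 125, 250 and 500 nM gave 4.86, 9.58, 10.1 and 30.8 CPM with romidepsin and 7.3, 13.7, 17.6 and 28.3 CPM without. Each of these 6 series rose at every step. In PF382 the level was 5.63, 9.6, 13.6 and 17.6 CPM with romidepsin and 7.14, 9.64, 8.67 and 11.5 CPM without, and only the series without romidepsin had a step down. For each doubling of the dose of azacitidine, compared within lines, IRF7 rose by 0.52 ± 0.07 on the log2 scale (adjusted p 1.57e-05), and this call held without any 1 line.

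The slope called 10 of 42 members (23.8%), 9 higher and 1 lower, against 17.8% of all symbols (11.1% higher, 6.70% lower). XAF1, which antagonises an inhibitor of apoptosis, rose by 0.28 ± 0.07 per doubling (adjusted p 0.00666), a call lost without PF382 (0.114). IRF9, the DNA-binding partner of STAT2, rose by 0.25 ± 0.06 (adjusted p 0.00667), a call lost without TLOm1 (0.0701). IRF9 was at 12.6, 16.3, 19.5 and 34.2 CPM in TLOm1 with romidepsin at 0, 125, 250 and 500 nM, and at 19.8, 20.2, 24.6 and 46.1 CPM without. In PF382 it was at 9.36, 9.18, 9.68 and 10.2 CPM with romidepsin and 9.68, 11.6, 11.8 and 13.1 CPM without. Its largest step was thus from 250 to 500 nM in TLOm1. At 0, 50, 125 and 250 nM IRF9 was at 13.3, 9.98, 9.43 and 10.9 CPM in HH with romidepsin and 16.8, 13.7, 17.2 and 17.7 CPM without, and at 8.03, 7.87, 9.66 and 10.2 CPM in H9 with romidepsin and 9.12, 7.76, 9.06 and 11.4 CPM without. The other genes called higher per doubling were IFI6, IFI27, HERC5, IFIT3, IFITM3 and MX1, by 0.22 (HERC5) to 0.68 (IFI27). UBE2L6, the conjugating enzyme for ISG15, was called lower, by -0.10. Of the 10 slope calls, only that of IRF7 held whichever line was left out. IFI27 was at most 2.27 CPM in PF382, HH and H9. In TLOm1 its median was 1.28 CPM and its highest level 13.1 CPM. Without PF382, TLOm1, HH or H9 the slope called 6, 3, 6 and 16 members. Over the libraries with romidepsin it called 2 members and over those without romidepsin 3.

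**Figure D3:**
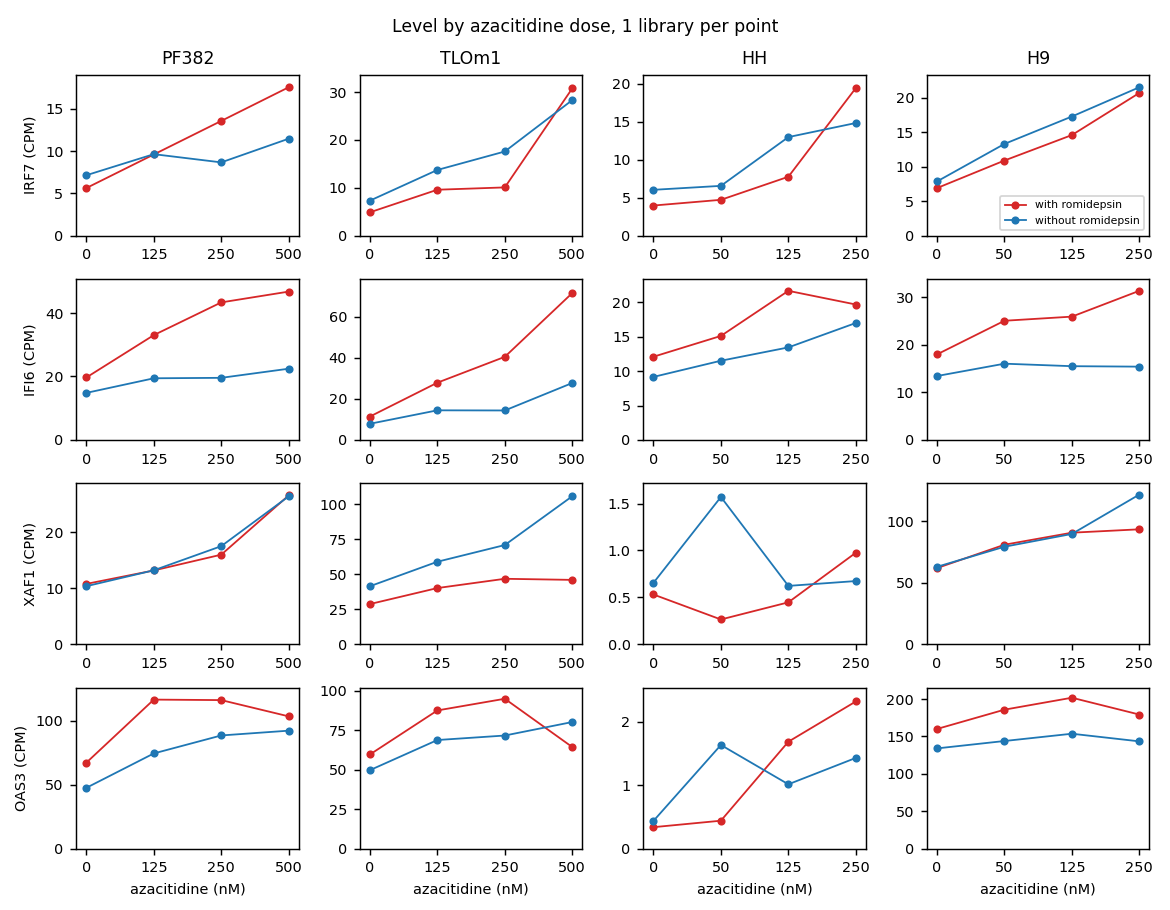
Level in CPM of IRF7, IFI6, XAF1 and OAS3 by azacitidine dose in nM in each line, with romidepsin (red) and without (blue), 1 library per point and a linear axis from 0. IRF7 was highest at the top dose in every series, whereas XAF1 in HH stayed under 2 CPM.

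Among the ISG15 conjugation genes, which attach the ubiquitin-like protein ISG15 to other proteins or remove it, HERC6 was called with azacitidine and no member with the combination. HERC6 was at 11.6, 5.67, 5.6 and 8.58 CPM in PF382, TLOm1, HH and H9 with azacitidine at 250 nM, against 5.35, 2.43, 3.71 and 6.18 CPM untreated. Each line was higher with the drug. The change was 0.83 ± 0.20 (adjusted p 0.0147), and the call was lost without PF382 (0.0654), TLOm1 (0.0928) or H9 (0.0510). In the combination HERC6 was at 10.3, 3.42, 2.88 and 7.53 CPM, a change of 0.35 ± 0.20 that was not called (adjusted p 0.221). ISG15 itself changed by 0.03 ± 0.23 in the combination, and the conjugating enzyme UBE2L6 by -0.08 ± 0.09, neither of them called.

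In the OAS family, enzymes that make a messenger to activate RNase L, OAS3 and OASL rose in the combination and OAS1 and OAS2 were not called. OAS3 was at 116, 95, 2.32 and 179 CPM in PF382, TLOm1, HH and H9 with the combination at 250 nM, against 47.5, 49.7, 0.436 and 134 CPM untreated. It was higher in each line, at a level in HH far below the other 3. The change was 1.01 ± 0.21 (adjusted p 0.00198). OASL, which lacks the synthetase activity of its relatives and binds the sensor RIG-I, was at 1.7, 22.4, 16.1 and 4.29 CPM against 0.327, 6.83, 10.3 and 1.74 CPM. Its change was 1.45 ± 0.38 (adjusted p 0.0089), with HH the smallest of the 4 increases. In HH azacitidine alone gave OASL 19.6 CPM, above the combination.

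Of the 4 membrane restriction factors, IFITM2, IFITM3 and BST2 rose in the combination and IFITM1 was not called. IFITM proteins stop enveloped viruses from fusing with the cell, and BST2 (tetherin) holds budding virions at its surface. IFITM1, IFITM2 and IFITM3 are similar copies in sequence, so the counting may have split or dropped shared reads, and their values are uncertain to that extent. IFITM3 was at 2.89, 2.28, 0.557 and 1.64 CPM in PF382, TLOm1, HH and H9 with the combination at 250 nM, against 0.572, 0.726, 0 and 2.12 CPM untreated. It was higher in 3 lines and lower in H9, and HH had 12 counts against 0. The change was 1.46 ± 0.49 (adjusted p 0.0347), lost without PF382 (0.271), TLOm1 (0.10) or HH (0.160).

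BST2 was at 19.1, 232, 155 and 101 CPM against 11.4, 223, 133 and 66.8 CPM in the same order of lines. Its rise was small, 0.39 ± 0.12 (adjusted p 0.025), and its call was lost without PF382 (0.0680), HH (0.0593) or H9 (0.186). The change of IFITM2 was 1.49 ± 0.52 (adjusted p 0.0441), lost without PF382 (0.267) or HH (0.284). No member of the IFIT family, which bind foreign RNA at the ribosome, of the MX GTPases, or of the group of RSAD2, CMPK2 and the SAMD9 pair was called in the combination or with azacitidine at 250 nM.

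PARP12, an ADP-ribosyltransferase that restricts RNA viruses, was the 1 of 3 genes of its group to be called in the combination. It was at 46.7, 33.1, 4.27 and 63.4 CPM with the combination at 250 nM, against 29.2, 20.6, 0.436 and 57.8 CPM untreated. H9 differed least and HH most. The change was 0.93 ± 0.28 (adjusted p 0.019), a call lost without PF382 (0.0852) or TLOm1 (0.0843).

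Among the other induced proteins, IFI6, a mitochondrial and endoplasmic reticulum protein that limits apoptosis and flavivirus replication, gave the smallest p. It was at 43.4, 40.5, 19.7 and 31.4 CPM in PF382, TLOm1, HH and H9 with the combination at 250 nM, against 14.8, 7.85, 9.16 and 13.4 CPM untreated. The groups did not overlap. The change was 1.56 ± 0.20 (adjusted p 2.14e-05). At 250 nM azacitidine alone gave 19.6, 14.3, 17 and 15.4 CPM (change 0.58 ± 0.20, adjusted p 0.0881). Romidepsin alone gave 19.7, 11.4, 12.1 and 18 CPM (change 0.43 ± 0.20, adjusted p 0.864). Neither single drug was called over the lines, though each library lay above its own untreated library.

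Romidepsin added to azacitidine at 250 nM called 1 member, IFI6, which was higher, against 5.67% of all symbols (3.43% higher, 2.24% lower), and without TLOm1 it called 2. The IFI6 change was 0.98 ± 0.20 (adjusted p 0.00641). Azacitidine added to romidepsin called 5 members, all higher, against 14.1% of all symbols (8.92% higher, 5.21% lower). They were IRF7 (1.59 ± 0.25), IFI6 (1.13 ± 0.20), OAS3, BST2 and XAF1. Without PF382 or TLOm1 that comparison called 2 and 3 members. A departure from additive log2 changes of both drugs was called in no member and in 0% of symbols. In that test 0 members and 596 symbols had an unadjusted p under 0.05. For HH, this test and azacitidine added to romidepsin also hold unequal romidepsin doses, 1 nM alone and 1.25 nM in the combinations. At 125 nM the combination called IFI6 (1.27 ± 0.20) and OAS3 (0.96 ± 0.21), both higher, against 7.0% of all symbols (4.40% higher, 2.60% lower), and it called 1 without PF382 or TLOm1. Azacitidine alone at 125 nM called none against 0.461% of symbols (0.365% higher, 0.0955% lower), with 4 members at an unadjusted p under 0.05 in edgeR and 1 called by DESeq2.

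XAF1 was at 17.5, 71, 0.674 and 122 CPM with azacitidine at 250 nM in PF382, TLOm1, HH and H9, against 10.4, 41.5, 0.654 and 62.9 CPM untreated. HH was near silent in both. The change was 0.76 ± 0.21 (adjusted p 0.0361), lost without PF382 (0.0791), TLOm1 (0.0838) or H9 (0.176), and at 0.0545 in DESeq2. At 0, 125, 250 and 500 nM XAF1 was at 28.7, 40.2, 46.8 and 46 CPM in TLOm1 with romidepsin and at 41.5, 59, 71 and 106 CPM without. In PF382 these doses gave 10.8, 13.2, 16 and 26.6 CPM with romidepsin and 10.4, 13.2, 17.5 and 26.4 CPM without. In TLOm1 the series with romidepsin lay below the other at each dose, and in PF382 they ran together. At 0, 50, 125 and 250 nM it was at 61.9, 80.9, 90.7 and 93.4 CPM in H9 with romidepsin and 62.9, 79.2, 89.6 and 122 CPM without, and in HH at 0.53, 0.264, 0.447 and 0.976 CPM with and 0.654, 1.57, 0.622 and 0.674 CPM without.

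EPSTI1, an interferon-induced protein of stromal and immune cells, was at 89.7, 33.5, 10.6 and 13.8 CPM with the combination at 250 nM, against 51.8, 12.4, 10.3 and 8.5 CPM untreated. The rise of 0.74 ± 0.25 (adjusted p 0.0357) was least in HH, and its call was lost without PF382 (0.0649), TLOm1 (0.152), HH (0.0586) or H9 (0.0732). TRIM22, an antiviral ubiquitin ligase, was called too (0.69 ± 0.23, adjusted p 0.0367), lost without PF382 (0.101), TLOm1 (0.0614) or H9 (0.265). Among the members with the smallest p for romidepsin alone, EPSTI1 was at 78.1, 25.7, 12.1 and 10.6 CPM against the same untreated levels (change 0.54 ± 0.25, adjusted p 0.864). IFI35, a leucine zipper protein of uncertain role in antiviral signalling, was at 3.31, 10.1, 5.78 and 10.7 CPM with romidepsin against 5.27, 13.9, 7.15 and 12.2 CPM untreated. It was lower in each line, by -0.39 ± 0.18, which was not called (adjusted p 0.853).

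Within single lines, 4 libraries with romidepsin were set against 4 without it at matched azacitidine doses, with the spread pooled over lines. In HH that match is not of equal romidepsin doses. The members called were 20 in PF382 (17 higher, 3 lower), against 30.7% of all symbols (19.1% higher, 11.6% lower). They were 28 in TLOm1 (18 higher, 10 lower), against 32.6% (17.1% higher, 15.5% lower), and 18 in HH (7 higher, 11 lower), against 27.7% (14.0% higher, 13.7% lower). In H9 they were 3, all higher, against 4.47% (3.64% higher, 0.831% lower). As shares of the members these are 47.6%, 66.7%, 42.9% and 7.14%. Without the PF382 libraries at 125, 250 or 500 nM azacitidine the count there was 11, 10 and 13, and without any 1 dose in H9 it was 1. The effects of the 4 lines were unequal for 31 members, against 33.0% of all symbols, and for 20 without HH.

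In PF382 the smallest p values were those of EPSTI1, OAS1 and CMPK2. EPSTI1 was at 78.1, 93.3, 89.7 and 96.6 CPM with romidepsin at 0, 125, 250 and 500 nM azacitidine, against 51.8, 38.1, 39.3 and 39.1 CPM without (log2 change 1.10 ± 0.13, adjusted p 5.58e-06). OAS1 was at 2.41, 3.2, 3.51 and 3.6 CPM with romidepsin against 1.47, 0.902, 0.863 and 0.463 CPM without (1.81 ± 0.25, adjusted p 1.18e-05). CMPK2, a mitochondrial nucleotide kinase encoded beside RSAD2, was at 36.4, 36.8, 32.3 and 28 CPM with romidepsin against 16.9, 15.2, 18 and 18.5 CPM without (0.95 ± 0.11, adjusted p 1.18e-05). With and without romidepsin did not overlap for any of the 3 genes.

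In TLOm1 the leading genes were PLSCR1, IFI6 and SP110. PLSCR1, a phospholipid scramblase that also limits viral entry, was at 3.86, 4.03, 5.26 and 5.63 CPM with romidepsin at 0, 125, 250 and 500 nM, against 1.37, 1.54, 1.44 and 3.55 CPM without (1.29 ± 0.15, adjusted p 3.06e-06). IFI6 was at 11.4, 27.9, 40.5 and 71.6 CPM with romidepsin against 7.85, 14.4, 14.3 and 27.7 CPM without (1.13 ± 0.14, adjusted p 5.95e-06). SP110, a nuclear body protein, was at 20.9, 20.9, 24 and 30.5 CPM with romidepsin against 15.2, 17, 16.7 and 18.6 CPM without (0.50 ± 0.07, adjusted p 3.12e-05). Each was higher with romidepsin at all 4 doses. The members called lower in TLOm1 included XAF1 (-0.73 ± 0.12), IFI35 (-0.78 ± 0.15) and IRF9 (-0.43 ± 0.09).

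In HH, PLSCR1 was at 5.25, 8.66, 12.4 and 12.1 CPM with romidepsin at 0, 50, 125 and 250 nM azacitidine, against 1.22, 1.44, 2.88 and 2.44 CPM without. This had the smallest p of any member in any line, 2.25 ± 0.14 on the log2 scale (adjusted p 5.79e-10). SAMD9L, which shuts down translation in infected cells, moved the other way, at 51, 36.5, 32.9 and 29.9 CPM with romidepsin against 66.2, 59.1, 56.8 and 52.3 CPM without (-0.66 ± 0.09, adjusted p 1.95e-05). IFITM2 was at 0.675, 1.63, 3.87 and 6.46 CPM with romidepsin against 0.611, 1.05, 1.47 and 2.69 CPM without (1.11 ± 0.16, adjusted p 1.99e-05). Also called lower in HH were ISG15 (-0.79 ± 0.11), IRF9 (-0.59 ± 0.10), IFIT3 (-0.77 ± 0.14) and OAS2 (-1.09 ± 0.19). RSAD2 (viperin) was called lower on few reads, with 0, 0, 0 and 0 counts with romidepsin at the 4 doses and 2, 0, 9 and 8 counts without, so no fold is given.

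In H9, IFI6 was at 18, 25.1, 25.9 and 31.4 CPM with romidepsin at 0, 50, 125 and 250 nM, against 13.4, 16, 15.5 and 15.4 CPM without (0.71 ± 0.13, adjusted p 0.00274). OASL was at 3.22, 3.41, 3.47 and 4.29 CPM with romidepsin against 1.74, 1.69, 1.58 and 1.38 CPM without (1.17 ± 0.31, adjusted p 0.0358). OAS1 was at 6.97, 7.79, 8.55 and 8.41 CPM with romidepsin against 3.94, 5.76, 5.82 and 4.34 CPM without (0.68 ± 0.19, adjusted p 0.0368). All 3 were higher with romidepsin at each dose, but OASL and OAS1 lost their call whichever dose was left out (adjusted p 0.0719 to 0.253 and 0.0757 to 0.255).

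Unequal effects were most marked for PLSCR1 (adjusted p 9.66e-09), IFITM2 (2.89e-06) and SAMD9L (4.48e-06). PLSCR1 was higher with romidepsin in TLOm1 and HH, as above. In PF382 it was at 25.6, 29.9, 30.6 and 27.8 CPM with romidepsin at 0, 125, 250 and 500 nM and 29.7, 33.3, 35.8 and 38.3 CPM without (-0.26 ± 0.10), a fall called at 0.0471 that was lost whichever dose was left out (0.0663 to 0.256). In H9 it was at 31.1, 33, 33.8 and 36.3 CPM with romidepsin at 0, 50, 125 and 250 nM and 27.9, 29.3, 28.5 and 36.3 CPM without. SAMD9L ran in PF382 at 20.2, 21.5, 18.6 and 19.7 CPM with romidepsin and 14, 14.9, 11.8 and 10.9 CPM without (0.64 ± 0.10, adjusted p 6.49e-05), the opposite of HH. It was at 124, 96.3, 96.7 and 84.8 CPM in TLOm1 with romidepsin and 106, 95.4, 80.7 and 111 CPM without, and in H9 at 25.2, 25.8, 27.3 and 26.2 CPM with and 23.9, 22.5, 21 and 21.7 CPM without. Called in no line were 4 of the 42 genes (9.52%), against 39.4% of all symbols. IFI6, OASL and DDX60 (a helicase that aids RNA sensing) were called higher in at least 3 lines (7.14%), against 3.53% of all symbols.

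**Figure D4:**
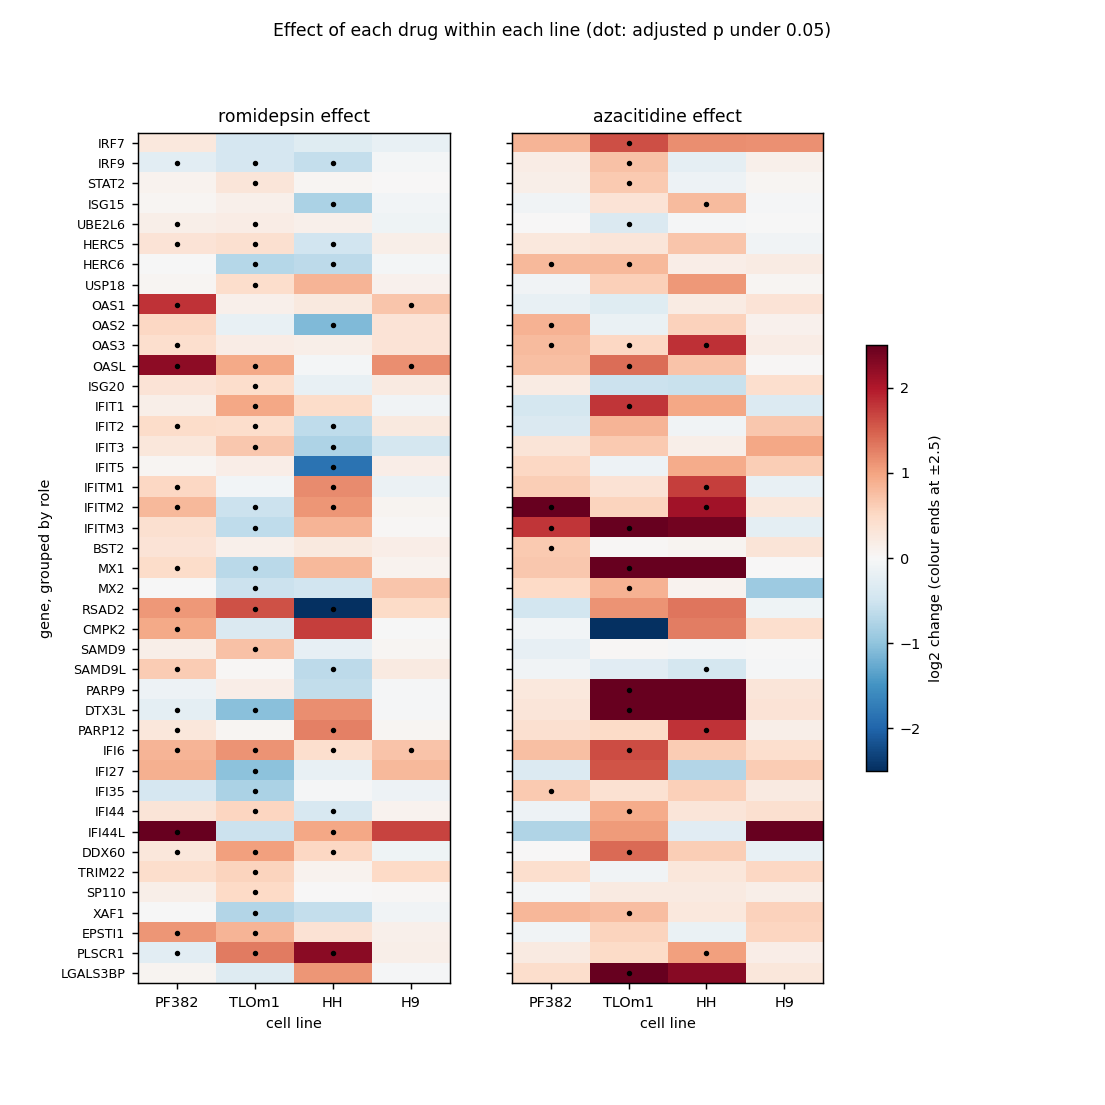
Log2 effect of romidepsin (left) and of azacitidine (right) on each member within each line, red higher and blue lower with the drug; a dot marks an adjusted p under 0.05. Romidepsin columns carry 20, 28, 18 and 3 dots for PF382, TLOm1, HH and H9, and azacitidine columns carry 7, 18, 7 and 0.

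The azacitidine effect within a line set 6 libraries with the drug, at any dose, against 2 without, matched on romidepsin given or not. In HH romidepsin was at 1.25 nM in the combinations and 1 nM alone, so the HH effect also holds that dose difference. The azacitidine effect called 7 members in PF382, all higher, against 8.33% of all symbols (5.94% higher, 2.39% lower). It called 18 in TLOm1 (17 higher, 1 lower), against 18.7% (11% higher, 7.68% lower). In HH it called 7 (6 higher, 1 lower), against 5.87% (4.07% higher, 1.80% lower), and in H9 none, against 5.86% (2.81% higher, 3.06% lower). In H9 edgeR gave 7 members an unadjusted p under 0.05 and DESeq2 called 2. Dropping a dose moved these counts: to 3 in PF382 without 250 or 500 nM, to 9 in TLOm1 without 500 nM, to 11, 4 and 2 in HH without 50, 125 and 250 nM, and to 1 in H9 without 50 nM. Unequal effects were called for 5 members, against 10.7% of all symbols, namely IFITM2, MX2, LGALS3BP, IFITM3 and IFITM1. That count was 3 without PF382 or TLOm1 and 1 without H9.

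IFITM2 had the most uneven azacitidine effect (adjusted p 0.00301). In PF382 at 125, 250 and 500 nM it was at 4.53, 8.33 and 8.28 CPM with romidepsin, where romidepsin alone gave 0.43 CPM. Without romidepsin these doses gave 2.49, 3.92 and 5.49 CPM, against 0.327 CPM untreated. The effect was 3.84 ± 0.54 (adjusted p 0.000115), from 8 counts in the untreated library. In TLOm1 at 0, 125, 250 and 500 nM it was at 2.14, 3.54, 3.52 and 3.84 CPM with romidepsin and 3.8, 4.72, 5.1 and 5.37 CPM without. In H9 at 0, 50, 125 and 250 nM it was at 246, 303, 314 and 227 CPM with romidepsin and 213, 296, 317 and 222 CPM without. H9 was thus high in every library, with its lowest levels at 0 and 250 nM.

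Also in PF382, BST2 at 0, 125, 250 and 500 nM was at 8.89, 16.8, 19.1 and 22.2 CPM with romidepsin and 11.4, 13.7, 14.7 and 11.6 CPM without (azacitidine effect 0.65 ± 0.15, adjusted p 0.00813). OAS3 at these doses was at 67.1, 116, 116 and 103 CPM with romidepsin and 47.5, 74.4, 88.4 and 92.2 CPM without (0.79 ± 0.18, adjusted p 0.00875). Each azacitidine library was above its matched library without azacitidine for both genes.

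In TLOm1, LGALS3BP, a secreted glycoprotein that binds galectins, at 0, 125, 250 and 500 nM was at 1.19, 5.11, 10.5 and 24.8 CPM with romidepsin and 2.13, 7.89, 14.8 and 22.6 CPM without. It rose at every step, and the azacitidine effect was 3.09 ± 0.54 (adjusted p 0.000688). Elsewhere LGALS3BP was high throughout in PF382 and H9 and low in HH. In HH it was near 0 without azacitidine and reached 2.0 CPM in the combination at 250 nM. The azacitidine effect in HH was 2.27 ± 1.42, which was not called (adjusted p 0.400). PF382 had 189.6, 247, 277 and 255 CPM with romidepsin and 184, 249, 249 and 238 CPM without. At 0, 50, 125 and 250 nM it was at 138, 151, 186 and 175 CPM in H9 with romidepsin and 144, 159.5, 187 and 168 CPM without, and in HH at 0.0482, 0.044, 0.496 and 2.0 CPM with and 0.175, 0.327, 0.36 and 0.337 CPM without. Its effects in the lines were unequal (adjusted p 0.0216). The IFI6 series given above for TLOm1 made an azacitidine effect of 1.64 ± 0.31 (adjusted p 0.00108). IFITM3 in TLOm1 was at 0.381, 1.97, 2.28 and 3.74 CPM with romidepsin and 0.726, 2.29, 3.62 and 6.79 CPM without (2.64 ± 0.55, adjusted p 0.00247).

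In HH, IFITM1 at 0, 50, 125 and 250 nM was at 2.7, 4.92, 8.34 and 12.5 CPM with romidepsin and 1.13, 2.09, 3.5 and 6.02 CPM without (1.72 ± 0.39, adjusted p 0.00956). OAS3 was at 0.337, 0.44, 1.69 and 2.32 CPM with romidepsin and 0.436, 1.64, 1.01 and 1.43 CPM without (1.82 ± 0.44, adjusted p 0.0143), a call lost without 250 nM (0.0511). PARP12 was at 0.53, 1.19, 2.13 and 4.27 CPM with romidepsin and 0.436, 0.785, 0.753 and 1.43 CPM without (1.80 ± 0.44, adjusted p 0.015). IFITM1 rose at each step in both series, from low levels, and OAS3 and PARP12 stayed under 5 CPM.

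In H9 the smallest p values were those of MX2, IFIT3 and EPSTI1, none called. MX2, a nuclear pore GTPase that blocks HIV, was at 2.29, 1.62, 1.57 and 1.33 CPM with romidepsin at 0, 50, 125 and 250 nM and at 1.93, 1.07, 0.514 and 0.832 CPM without (-0.91 ± 0.28, adjusted p 0.057). IFIT3 was at 1.23, 2.07, 1.65 and 2.35 CPM with romidepsin and 1.27, 2.31, 2.93 and 3.55 CPM without (0.96 ± 0.34, adjusted p 0.0976). EPSTI1 was at 10.6, 13.6, 15.2 and 13.8 CPM with romidepsin and 8.5, 12.9, 13.8 and 14 CPM without (0.54 ± 0.22, adjusted p 0.152). The direction of MX2 in H9 was opposite to TLOm1, where it was called higher (0.88 ± 0.24, adjusted p 0.0143), and the lines differed (adjusted p 0.0143). MX2 in TLOm1 at 0, 125, 250 and 500 nM was at 3.95, 8.01, 8.23 and 7.01 CPM with romidepsin and 6.32, 11.4, 10.9 and 10.7 CPM without, and in PF382 at 40.3, 54.5, 65.1 and 62.4 CPM with and 45.3, 49.1, 57 and 73.8 CPM without. In HH it was at 0.868, 0.308, 0.992 and 1.72 CPM with romidepsin at 0, 50, 125 and 250 nM and 1.35, 1.44, 1.37 and 1.31 CPM without.

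Several members that were near 0 in an untreated line gained reads with azacitidine. PARP9, DTX3L and MX1 are given in full here and were chosen after their values were seen. In TLOm1 at 0, 125, 250 and 500 nM PARP9 was at 0.0476, 0.161, 1.24 and 5.02 CPM with romidepsin and 0.213, 0.176, 0.96 and 4.35 CPM without. Its counts ran 1, 4, 25 and 98 with romidepsin and 5, 4, 22 and 98 without. DTX3L was at 0.143, 0.242, 1.69 and 3.33 CPM with romidepsin and 0.299, 0.265, 2.79 and 8.17 CPM without. Both genes stepped up at 250 and again at 500 nM. The azacitidine effect was called for PARP9 (adjusted p 0.0333) and DTX3L (0.0178), and both calls were lost without 500 nM (0.147 and 0.0662). In HH at 250 nM PARP9 had 8 counts with romidepsin and 19 without, against 0 untreated. In PF382 and H9, where the pair was high at the start, PARP9 ranged over 38.3 to 51.7 CPM and 62.4 to 94.4 CPM, and no azacitidine effect was called for either gene.

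MX1, a GTPase that traps viral ribonucleoprotein, was at 0.143, 0.403, 1.49 and 3.99 CPM in TLOm1 with romidepsin at 0, 125, 250 and 500 nM and at 0.0427, 0.397, 1.74 and 8.79 CPM without. The series began at 3 counts with romidepsin and 1 untreated, so no fold is given (adjusted p 0.00999). In PF382 MX1 was at 24.1, 35.9, 42.7 and 48.2 CPM with romidepsin and 20.4, 23.6, 28.7 and 36 CPM without, a rise at each step in both series. The azacitidine effect there, 0.67 ± 0.57, was not called (adjusted p 0.511). MX1 stayed within 2.89 to 3.94 CPM in H9 and reached at most 0.511 CPM in HH.

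Of the members under 1 CPM in an untreated line, the combination at the highest dose brought to 1 CPM or more 4 of 4 in PF382, 7 of 9 in TLOm1, 4 of 15 in HH and 2 of 4 in H9. The highest azacitidine dose alone did so for 2, 7, 3 and 1 of them. Over all tested symbols under 1 CPM the combination did so for 30.5% in PF382, 29.1% in TLOm1, 17.4% in HH and 11.5% in H9, and azacitidine alone for 15.3%, 16.3%, 10.6% and 7.24%. The highest dose was 500 nM in PF382 and TLOm1 and 250 nM in HH and H9, so the lines are not at equal doses.

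**Figure D5:**
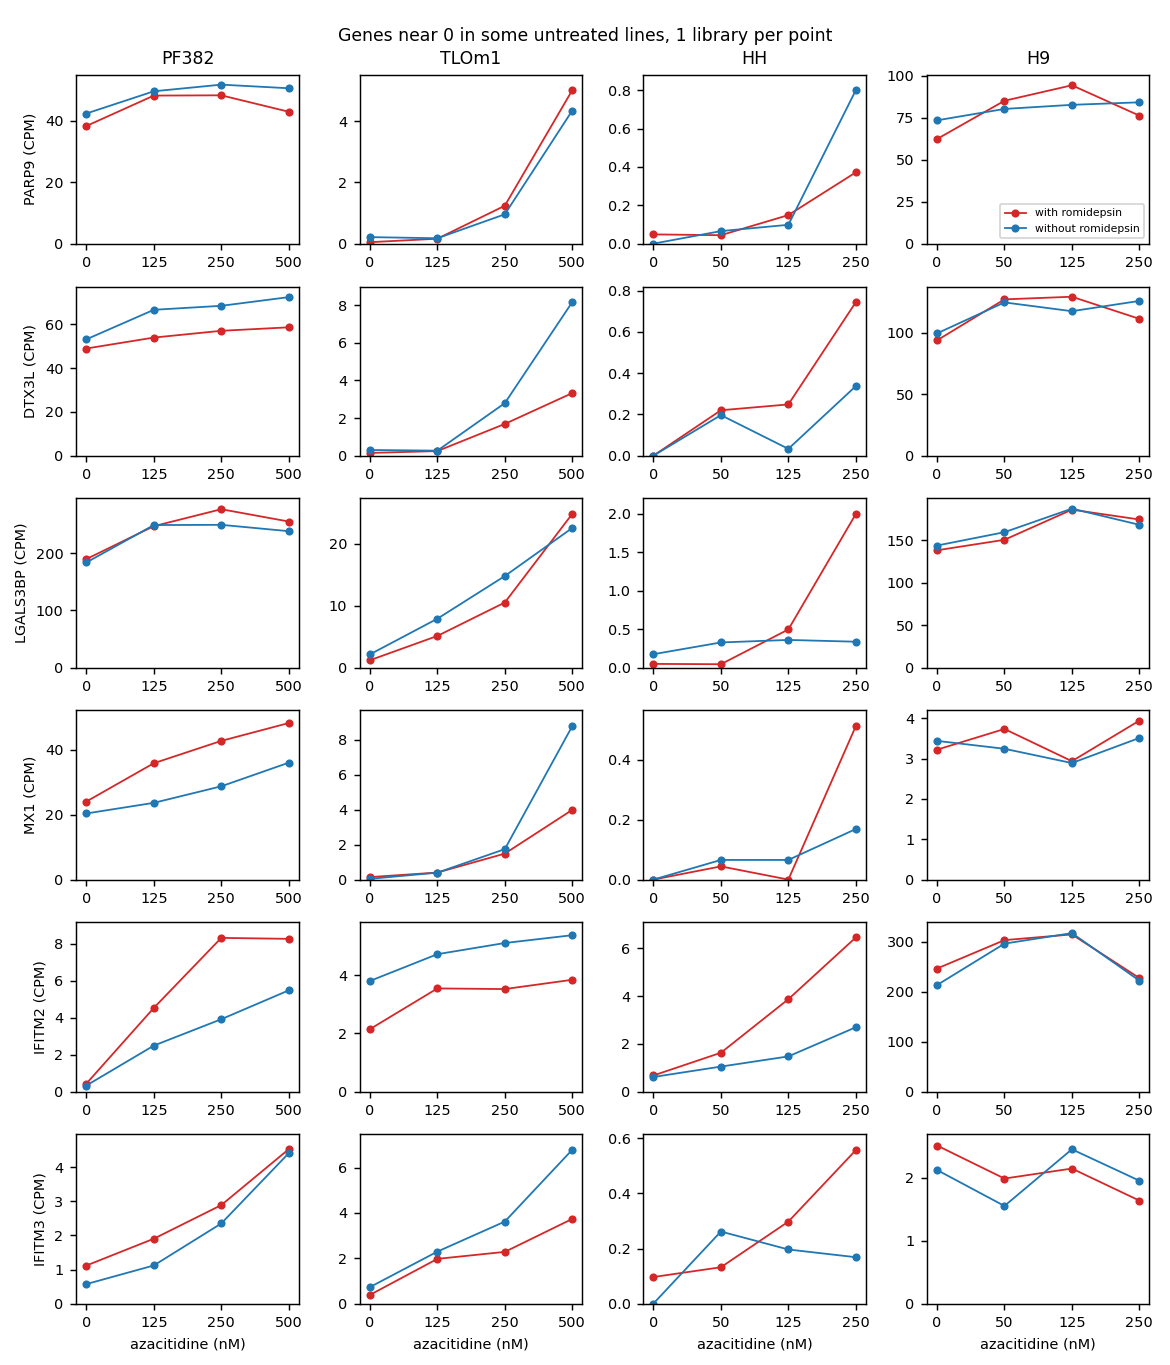
Level in CPM of PARP9, DTX3L, LGALS3BP, MX1, IFITM2 and IFITM3 by azacitidine dose in nM in each line, with romidepsin (red) and without (blue), 1 library per point, each panel with its own linear axis from 0. In TLOm1 all but IFITM2 stood at or below 2.13 CPM without azacitidine and at or above 3.33 CPM at 500 nM.

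The interferons themselves gave few reads. Of 24 interferon gene names 21 were in the tables, 18 of these had at most 10 counts over all 32 libraries and 7 had none, and 2 passed the filter. IFNB1, the main early type I interferon, had 9 counts in all. IL29 (interferon lambda 1) was called in the combination at 250 nM (1.79 ± 0.65, adjusted p 0.0484). Its counts were 2, 1, 108 and 3 in PF382, TLOm1, HH and H9, against 1, 0, 31 and 1 untreated, so HH held most of them. The call was lost without PF382 (0.0699), TLOm1 (0.0578) or H9 (0.0959), and without HH the gene did not pass the filter. IFNG had 1547 counts in all, and its level in H9 at 0, 50, 125 and 250 nM was 9.62, 10.2, 6.66 and 1.59 CPM with romidepsin and 10.9, 9.24, 7.12 and 3.22 CPM without. None of the 10 measured receptor and JAK-STAT genes was called by edgeR in the combination at 250 nM against untreated, or with azacitidine at 250 nM, and 2 had an unadjusted p under 0.05 in each comparison. In the combination against azacitidine at 250 nM, IFNGR1 (0.51 ± 0.12) and IL28RA (1.37 ± 0.37), receptor chains for interferon gamma and lambda, were called higher. The IFNGR1 call was lost without PF382 (0.0573), TLOm1 (0.0910) or HH (0.0734), and the IL28RA call without PF382 (0.0870), HH (0.210) or H9 (0.0833). In the combination at 125 nM against untreated, IFNAR1, a type I interferon receptor chain, was called lower (-0.22 ± 0.07), which was lost without any 1 line (0.0586 to 0.204).

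Among IRF factors outside the members, the combination at 250 nM raised IRF5 (1.37 ± 0.37, adjusted p 0.0112) and lowered IRF4 (-0.60 ± 0.14, adjusted p 0.00533). Of 12 negative regulators, SOCS3 (1.36 ± 0.43) and TRIM28 (0.18 ± 0.06) rose, and PIAS1 (-0.22 ± 0.08) and SETDB1 (-0.34 ± 0.07) fell. TRIM28 and SETDB1 silence retroviral elements, and SOCS3 and PIAS1 restrain JAK-STAT signalling. Among 43 further interferon-induced genes outside the members 4 rose and 3 fell (16.3% in all, against 23.0% of all symbols), with a median log2 change of 0.10 against 0.04 over all symbols. The 4 with the smallest p were C19orf66 (0.56 ± 0.11), SAMHD1 (0.78 ± 0.17), TREX1 (-0.47 ± 0.14) and APOL6 (-0.62 ± 0.19). C19orf66 restricts viral translation, SAMHD1 degrades nucleotides, TREX1 degrades cytosolic DNA, and APOL6 is an apolipoprotein L. With azacitidine alone at 250 nM, TRIM28 (0.23 ± 0.06) and TRIM26 (0.32 ± 0.08) rose in these lists. Refits without each line, chosen after seeing the data, kept the calls of C19orf66, SAMHD1 and SETDB1 in the combination each time. Calls were lost without TLOm1 for IRF4 (0.165) and TREX1 (0.119), without TLOm1 (0.0746) or H9 (0.159) for IRF5, and without TLOm1 (0.0560) or HH (0.121) for APOL6. They were lost without PF382 (0.194), TLOm1 (0.168) or HH (0.0650) for SOCS3. The same held without PF382 (0.0970), TLOm1 (0.204) or H9 (0.138) for PIAS1 and without PF382 (0.167), TLOm1 (0.0522) or H9 (0.318) for TRIM28. With azacitidine alone TRIM28 lost its call without any 1 line (0.0820 to 0.128), and TRIM26 without PF382 (0.0706), TLOm1 (0.0944) or H9 (0.0564).

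Markers of other cell types moved in the same comparison. In the combination at 250 nM against untreated cells, 2 of 6 B-cell, 3 of 4 natural killer, 1 of 4 tested monocyte, 1 of 3 tested plasmacytoid dendritic and 2 of 4 tested epithelial markers were higher. Of 9 T-cell markers 2 were lower, CD3E by -0.36 and CD247 by -0.60, calls lost without HH for CD3E (0.0582) and without HH (0.131) or H9 (0.140) for CD247. The summed level of the natural killer list was 3.67 to 39.7 CPM in the 4 combination libraries, against 0.768 to 14.3 CPM in the untreated ones. Of the dendritic list, it was 0.133 to 229 CPM against 0.309 to 206 CPM, with IL3RA at 0 in both groups. The epithelial list gave 2.88 to 203 CPM against 0.873 to 104 CPM. For the B-cell list the range was 19.1 to 409 CPM against 2.01 to 431 CPM, and for the monocyte list 2.70 to 8.41 CPM against 1.35 to 5.45 CPM. The T-cell list was at 1141 to 1836 CPM against 1437 to 1845 CPM. Whether these levels have a part in the changes of the interferon-stimulated genes was not tested.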

How the data were processed

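Poly(A) RNA and ribosomal RNA depletion are both named in the labels, so the selection step is unsettled here. The submitters' processing notes name STAR, DESeq2, limma and build GRCh37.p2, while neither the read counter nor the annotation or strand setting is given in the sources used here. Each library has 1 deposited table of the authors' raw counts by gene symbol, used unchanged.

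All 32 libraries entered each fit of edgeR 4.0.16 (quasi-likelihood F test, TMM scaling, filterByExpr with minimum count 10 and total 15, R 4.3.3, limma 3.58.1), with Benjamini-Hochberg adjustment over 17801 symbols (17101 for the slope) and a threshold of 0.05. The group model held 10 treatment-by-dose groups and a cell line term (19 residual degrees of freedom). Line models gave each drug's effect within a line, and the slope model the change per doubling of dose. Since libraries of a line share their cells, line was a term, and correlations are given above. The spread is pooled over libraries, which may make it technical in part. DESeq2 1.42.0, other scalings, no filter, no line term and left-out lines or doses were tried, and the pathway lists were refitted without each line after seeing the data. Reads of overlapping genes cannot be assigned without the strand setting.

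The members and lists were chosen with earlier results of these data known. Values are given for members called at 250 nM (up to 8 per comparison) and the 3 with the smallest p in each other comparison named in the rule: romidepsin alone, the slope, and the line effects and their inequality. At most 4 genes per pathway list are named, and some list results are not reported here. CPM values are not corrected for length, so levels are compared within a gene. Scripts were tested on simulated data.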

Additional observations from a re-analysis of the deposited data

Results flagged for a closer look

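The changes of a member in the 4 lines were examined for 1 line lying far from the other 3, and 8 of 75 such sets were marked, where chance marks about 1 in 20. For romidepsin alone against untreated, the line far from the rest was TLOm1 for IFI6 (log2 change 0.531), for SP110 (0.459) and for DTX3L (-0.757), and PF382 for CMPK2 (1.10). DTX3L was near 0 in both TLOm1 libraries compared, at the floor of 3 counts with romidepsin, so its fold is uncertain. For azacitidine at 250 nM it was PF382 for IRF7 (0.276, the smallest of the 4), HH for IRF9 (0.0808) and H9 for OAS1 (0.138, the 1 positive line). For the combination at 250 nM it was TLOm1 for CMPK2 (-1.02), which had at most 2 counts in any TLOm1 library.

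Romidepsin effects that differed between the lines, by the test of the difference itself in edgeR, were called for 31 of the 42 members. Values are given here for 20 of them. The naming rule picked these except DTX3L and MX1, which were chosen after their values were seen. The adjusted p was 9.66e-09 for PLSCR1, 2.89e-06 for IFITM2, 4.48e-06 for SAMD9L, 1.72e-05 for IFIT3, 0.000419 for IFITM1 and 0.000595 for DTX3L. It was 0.00181 for CMPK2, 0.00218 for PARP12 and SP110, 0.00226 for OAS1, 0.00357 for EPSTI1 and 0.00763 for OASL. It was 0.0102 for MX2, 0.0118 for XAF1, 0.0129 for MX1, 0.0238 for HERC6, 0.0266 for IRF9, 0.0303 for IFITM3, 0.0366 for IFI35 and 0.0473 for IFI6, which was higher with romidepsin in 4 of 4 lines. Azacitidine effects differed for IFITM2 (0.00301), MX2 (0.0143), LGALS3BP (0.0216), IFITM3 (0.0221) and IFITM1 (0.0404). The causes were not tested.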

How the results depend on the processing

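Direction was followed for the members picked by the rule and for those called over the lines or in the slope. None of these changed direction under any alternative. For other calls within a line and for the pathway lists, changes of direction were not tallied here. The number of members called moved by over 1.5 times as follows. Without the cell line term (no replicate block) the group model called 0 for azacitidine at 250 nM, 1 for the combination at 250 nM, and 0 for the combination against azacitidine, for the combination against romidepsin and for the combination at 125 nM. When only the libraries of the groups compared entered, each of these 5 comparisons called 0. With doses grouped by their order in each line, the counts were 6 for azacitidine at 250 nM, 17 for the combination at 250 nM, 5 against azacitidine, 12 against romidepsin, 1 for azacitidine at 125 nM and 6 for the combination at 125 nM. DESeq2 called 9 for the combination against romidepsin, 1 for azacitidine at 125 nM, 5 for the combination at 125 nM, 16 for the slope, 2 for azacitidine in H9 and 13 for unequal azacitidine effects. The slope called 3 over libraries without romidepsin and 2 over those with it.

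With a line left out, the counts ran from 1 to 2 for azacitidine at 250 nM, 5 to 9 for the combination at 250 nM, 1 to 2 against azacitidine, 2 to 6 against romidepsin, 1 to 2 for the combination at 125 nM, 3 to 16 for the slope, 20 to 25 for unequal romidepsin effects and 1 to 4 for unequal azacitidine effects. With a dose left out, romidepsin called 10 to 22 in PF382 and 1 to 1 in H9, and azacitidine called 3 to 8 in PF382, 9 to 25 in TLOm1, 2 to 11 in HH and 0 to 1 in H9. Of the values of single members, 358 kept their side of the threshold, 123 lost a call and 2 gained one. DESeq2 size factors in edgeR and no filter on low counts moved none of these counts by over 1.5 times. The causes were not tested.

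Only 1 library stands behind each condition in a line, azacitidine and romidepsin doses differ between lines, and members at a few counts, such as CMPK2 in TLOm1 and HH or RSAD2 in HH, carry no usable fold.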
